A study of Mus musculus with 6 samples.

Results

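The genes described here encode proteins of the centrosome and of other microtubule-organizing centers (MTOCs). They were chosen by symbol and not by any measured value: every protein-coding gene named Cep followed by digits, with or without a suffix, and Pcnt, Pcm1, Cdk5rap2, Akap6, Akap9, Tubg1, Tubgcp2, Tubgcp3, Nin and Ninl. The rule found 46 of the 22028 protein-coding genes in the annotation, 36 by the Cep pattern and 10 by name. All 46 had enough counts to be tested.

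A centrosome is a pair of centrioles inside a protein matrix that holds gamma-tubulin ring complexes, the templates from which microtubules grow. Cycling cells copy their centrioles once per cycle and enlarge the matrix before mitosis. When myoblasts differentiate, cell division stops and microtubule nucleation moves to the nuclear envelope. There the scaffold AKAP6, bound to nesprin-1, holds pericentrin (the Pcnt product) and AKAP9.

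C2C12 is an established mouse myoblast line. The tested states were myotubes, the multinucleated fibers formed in medium with 2% horse serum, and reserve cells, the mononucleated cells that stay unfused in the same dishes; both were taken after 7 days and parted by mild trypsin treatment, while the methods of the study name a shorter culture for mature cultures. Myoblasts, harvested at about 95% confluency, were the baseline. Polyadenylated RNA of each state was sequenced in 2 libraries, which the submitters describe as biological replicates without saying how the cultures were separated, so the p-values measure the spread between these libraries. No cells were genetically altered or treated with a drug, and all come from 1 line.

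The libraries held 15658875 to 20055078 estimated counts. The 46 genes took 0.169% and 0.173% of them in myotubes, 0.191% and 0.201% in reserve cells, and 0.230% and 0.233% in myoblasts. Values are given as counts per 1000000 (CPM) after TMM scaling, and fold changes as log2 values ± their standard error from an edgeR fit of all 6 libraries. A gene was called where its p, adjusted by Benjamini-Hochberg over 15467 genes, was under 0.05. The labels were checked with markers. All 10 myotube markers were called higher in myotubes than in myoblasts, with a summed level of 28275 to 28390 CPM in myotubes, 7486 to 7614 CPM in reserve cells and 196 to 203 CPM in myoblasts. All 12 markers of cycling cells were called lower in myotubes than in myoblasts, with a summed level of 322 to 341 CPM in myotubes, 1267 to 1268 CPM in reserve cells and 2770 to 2813 CPM in myoblasts, and none was at 0. Of 8 reserve cell markers Calcr was at 0, and of the 7 tested 4 were called higher and 1, Hey1, lower in reserve cells than in myoblasts, and 6 lower and 1, Spry1, higher in myotubes than in reserve cells. Their sum was 391 to 397 CPM in myotubes, 1828 to 1857 CPM in reserve cells and 784 to 791 CPM in myoblasts. The summed levels of markers of adipocytes, leukocytes and endothelial cells stayed at or under 12.6 CPM in every library, while those of osteoblasts and chondrocytes summed to 60.2 to 61.0 CPM in myotubes, 59.6 to 63.2 CPM in reserve cells and 86.8 to 87.1 CPM in myoblasts, nearly all of it Sox9, which was called lower in both differentiated states.

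Most centrosome genes were lower in myotubes than in myoblasts, while a small group led by Akap6 was higher. Of the 46 genes, 39 were called, 10 higher and 29 lower. Among all genes tested 65.3% were called, 32.6% higher and 32.7% lower, whereas 21.7% of the centrosome genes were called higher and 63.0% lower. A fall of at least 2-fold was called for 17 of the 46, beside 18.7% of all genes, and a rise of that size for Akap6 alone, beside 16.8% of all genes. The median log2 fold change of the 46 genes was -0.78, and that of all genes was 0.0045. In none of the 39 did the libraries of the 2 states overlap. A call with 2 libraries a state favors such a gap, and its share among all called genes is not given here. Myotubes and myoblasts also differed in the cycling and myotube markers above, and the part of those cells in the centrosome gene levels was not tested. In such bulk samples fewer cells of a type and less RNA per cell cannot be told apart. Of the 39 calls, 33 were kept whichever library was left out, and Cep112, Cep120, Cep126, Cep19, Cep72 and Cep97 were not. With library totals in place of TMM factors, which moved the median of all genes to -0.27, 5 genes were called higher and 33 lower.

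**Figure D1:**
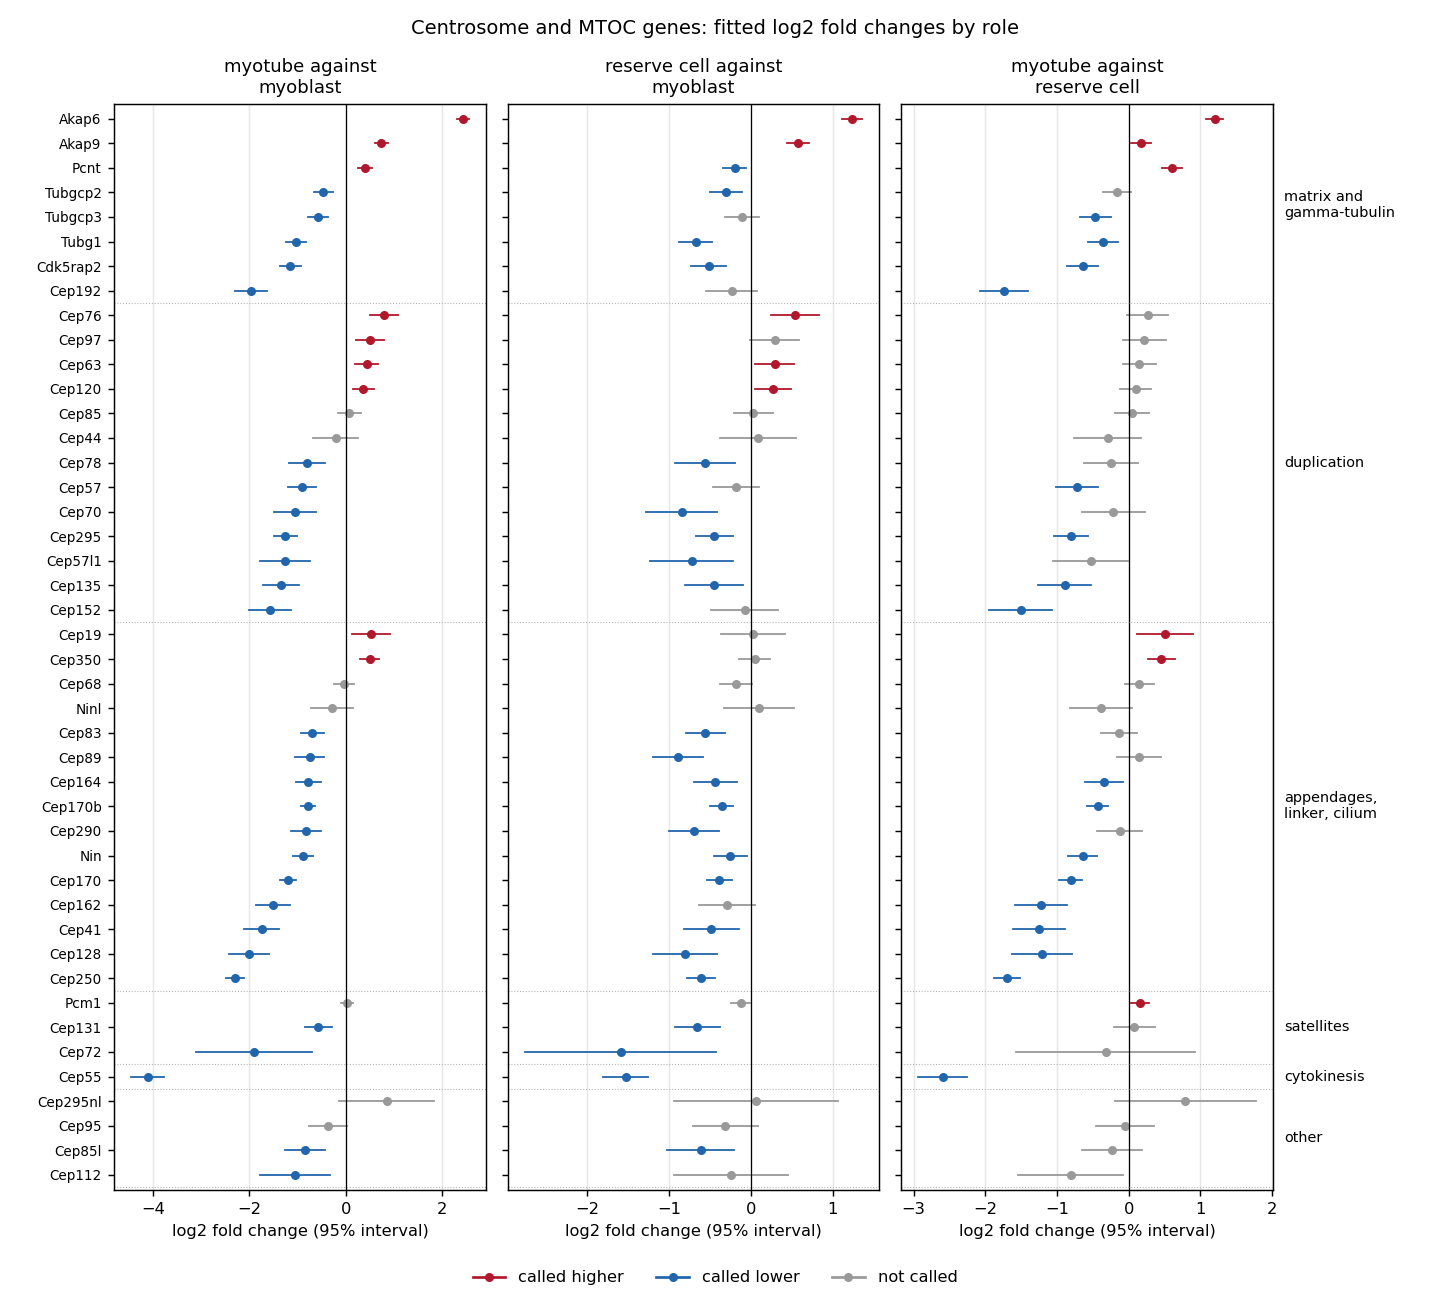
Fitted log2 fold changes (x axis) with 95% intervals (lines) of 44 of the 46 centrosome and MTOC genes, grouped by role, for the 3 pairs of states named above the panels, with red for genes called higher, blue for genes called lower and grey for the rest. The 2 genes left out include Cep126, which had 0 to 2 counts in each myotube and reserve cell library, and most points of the left panel lie below 0, with Akap6 at 2.44 and Cep55 at -4.12 at its ends.

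The 8 genes of the pericentriolar matrix and of gamma-tubulin moved in both directions in myotubes. Against myoblasts 3 were called higher (37.5%) and 5 lower (62.5%), beside 32.6% and 32.7% of all genes. The share called higher was thus near that of all genes. Counted over all transcripts, the 3 large anchoring scaffolds were called higher than in myoblasts, and the gamma-tubulin subunits with the 2 factors that load them onto centrosomes were called lower. Akap6, the scaffold of the muscle nuclear envelope, had 376 and 399 CPM in myotubes, with 165 and 173 CPM in reserve cells and 70.7 and 72.4 CPM in myoblasts. The 3 states stood apart without overlap, and Akap6 was higher by 2.44 ± 0.055 (adjusted p = 4.28e-09) in myotubes than in myoblasts. Akap9, which anchors gamma-tubulin complexes at the Golgi and at centrosomes, had 132 and 135 CPM in myotubes, with 116 and 122 CPM in reserve cells and 79.4 and 79.9 CPM in myoblasts. Both differentiated states lay above the myoblasts, and myotubes were higher than myoblasts by 0.75 ± 0.06 (adjusted p = 8.57e-06). Pcnt, whose product pericentrin scaffolds the matrix, had 134 and 131 CPM in myotubes, with 87.5 and 87.1 CPM in reserve cells and 97.7 and 103 CPM in myoblasts. Myotubes were highest and reserve cells lowest, and myotubes were higher than myoblasts by 0.40 ± 0.061 (adjusted p = 4.38e-04). Pcnt missed the threshold with library totals (log2 fold change 0.12, adjusted p = 0.106), and its transcripts moved in opposite directions.

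Tubg1, gamma-tubulin itself, had 30.4 and 31.2 CPM in myotubes, with 38.6 and 40.6 CPM in reserve cells and 67.9 and 58.5 CPM in myoblasts. Every myoblast library lay above both differentiated states, and myotubes were lower than myoblasts by a log2 fold change of -1.03 ± 0.09 (adjusted p = 1.34e-05). Tubgcp2 and Tubgcp3, the subunits that pair with gamma-tubulin in the small complex, showed smaller falls. Tubgcp2 had 38.5 and 34.6 CPM in myotubes, with 40.3 and 41.6 CPM in reserve cells and 53.0 and 48.1 CPM in myoblasts, and Tubgcp3 had 36.8 and 32.3, 44.6 and 50.8 and 51.1 and 51.7 CPM in the same order. The log2 fold changes in myotubes against myoblasts were -0.47 ± 0.086 (adjusted p = 0.00142) for Tubgcp2 and -0.57 ± 0.094 (adjusted p = 7.05e-04) for Tubgcp3. The value of Tubgcp3 turned to 0.11 (adjusted p = 0.748) when only transcripts annotated as protein-coding were counted.

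Cdk5rap2, which recruits and activates gamma-tubulin ring complexes, had 44.7 and 46.5 CPM in myotubes, with 65.9 and 76.4 CPM in reserve cells and 96.2 and 107 CPM in myoblasts. Its level stepped down without overlap toward the myotubes, with a log2 fold change of -1.16 ± 0.095 against myoblasts (adjusted p = 9.64e-06). Cep192, which gathers the mitotic kinases that enlarge the matrix, had 12.6 and 17.7 CPM in myotubes, with 48.5 and 53.0 CPM in reserve cells and 63.4 and 56.3 CPM in myoblasts. The myotubes stood far below the other states, with a log2 fold change of -1.97 ± 0.15 (adjusted p = 5.05e-06) against myoblasts.

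**Figure D2:**
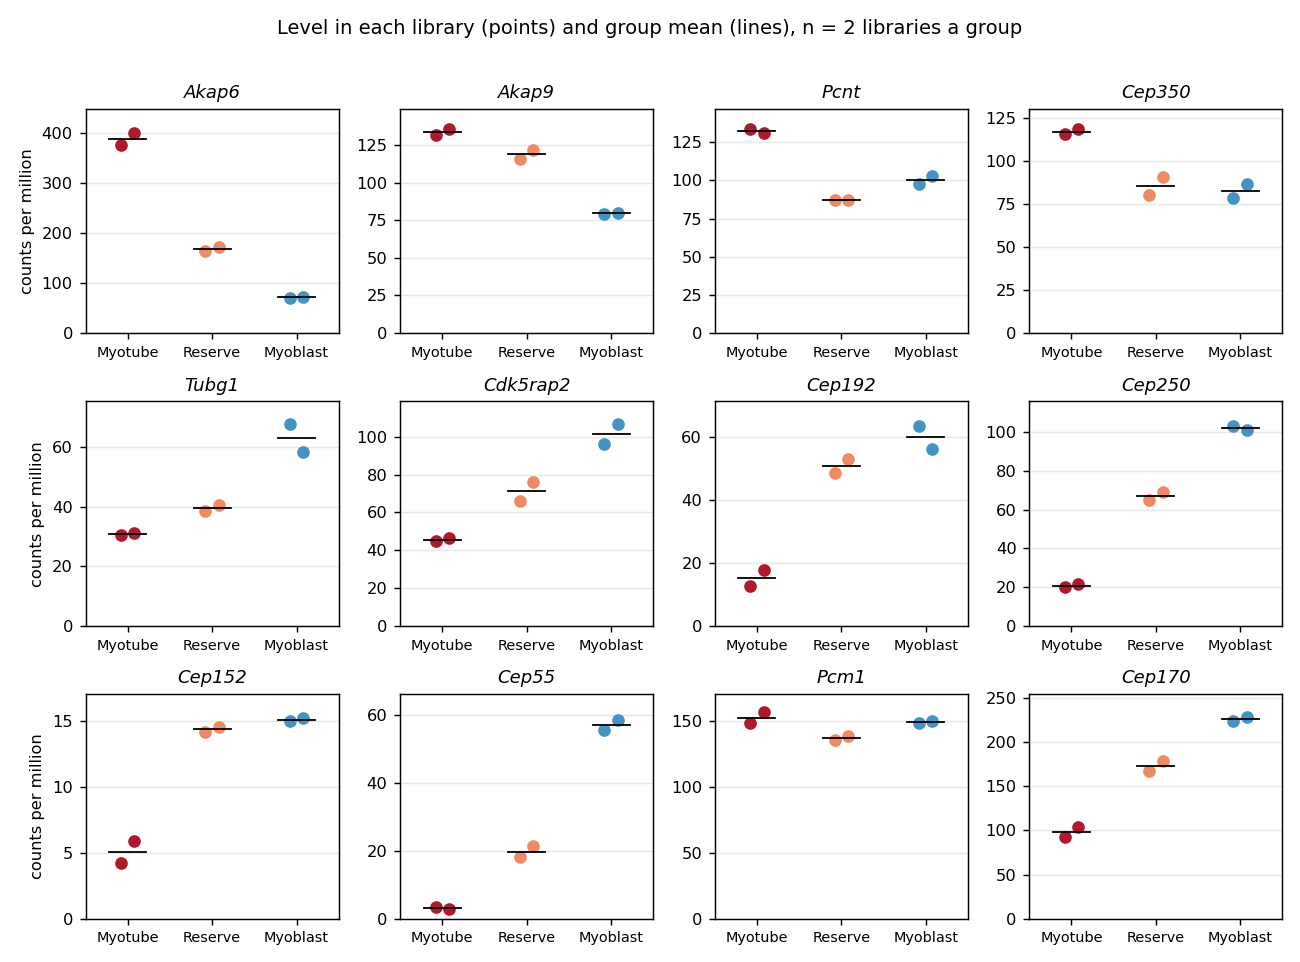
CPM (y axis, from 0) of 12 centrosome and MTOC genes in each library, with points for the 2 libraries of a state and a line at their mean, for myotubes, reserve cells and myoblasts. Akap6, Akap9 and Cep350 are highest in myotubes, Tubg1, Cdk5rap2, Cep192, Cep250, Cep152, Cep55 and Cep170 are lowest there, Pcnt is highest in myotubes and lowest in reserve cells, and Pcm1 lies between 135 and 156 CPM in every library.

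Counts of single transcripts, which are estimates that share reads among overlapping forms, placed the higher level of Pcnt in myotubes on 1 transcript. This placement could not be checked here without the reads, since that transcript shares most of its exons with the coding ones. Pcnt-208, annotated as a processed transcript with no coding region, had 1288 and 1100 counts in myotubes, with 73 and 44 in reserve cells and 0 and 0 in myoblasts. This made 68.4% and 48.9% of the Pcnt counts in myotubes, with 4.21% and 2.62% in reserve cells and 0% in myoblasts. By the deposited split, and against a floor of 3 counts over the myoblast group, Pcnt-208 was at least 989-fold higher in myotubes and at least 38.7-fold higher in reserve cells. Its share of Pcnt changed in myotubes against myoblasts by edgeR's test of transcript share (adjusted p = 0.0197), but missed the threshold in reserve cells against myoblasts (adjusted p = 0.222). In myotubes against reserve cells 0 of 112 tested transcript shares were called, so that of Pcnt-208 was not called either. The full-length coding transcripts Pcnt-201 and Pcnt-202 together had 588 and 1127 counts in myotubes, with 1649 and 1621 in reserve cells and 1640 and 2206 in myoblasts. Their split changed even between libraries of a state, as with 1523 and 328 counts of Pcnt-201 in the 2 myoblast libraries, so they are given as a sum. With only protein-coding transcripts counted, an alternative chosen after these values were seen, Pcnt was lower in myotubes than in myoblasts by a log2 fold change of -0.87 (adjusted p = 0.00534).

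Pcnt-208 runs on the minus strand of chromosome 10 of GRCm38 (GENCODE M21). It starts 25874 bases downstream of the start of Pcnt-202, past 13 of its 42 exons, and shares 29 of its own 30 exons exactly with it. Its first exon, chr10:76416690-76416912, overlaps no exon of another annotated Pcnt transcript. It is shown here because it marks the transcript that had its highest counts in myotubes by the deposited split. The 223 bases of that exon are in capitals and the first 40 bases of the next, shared exon in lower case.
Pcnt-208 start: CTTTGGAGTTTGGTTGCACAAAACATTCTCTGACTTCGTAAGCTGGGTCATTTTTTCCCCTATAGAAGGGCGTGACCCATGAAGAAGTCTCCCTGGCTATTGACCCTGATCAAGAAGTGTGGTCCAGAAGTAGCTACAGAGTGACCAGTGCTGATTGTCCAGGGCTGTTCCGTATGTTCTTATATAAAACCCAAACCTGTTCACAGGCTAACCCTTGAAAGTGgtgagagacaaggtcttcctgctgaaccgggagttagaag

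**Figure D3:**
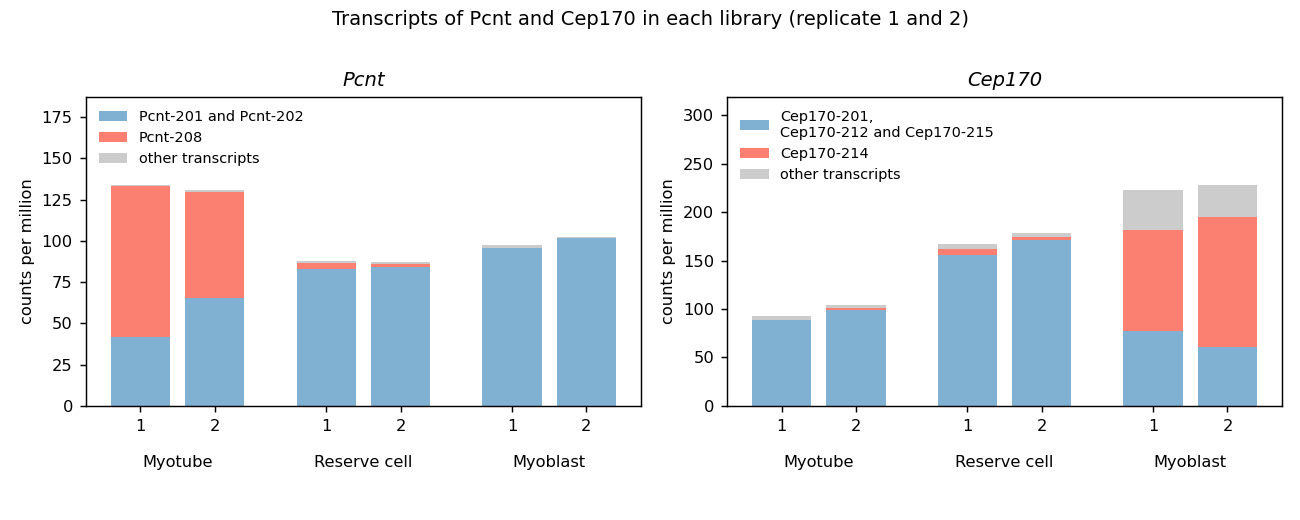
CPM (y axis, from 0) of the transcripts of Pcnt and Cep170, stacked, in each library (1 and 2) of myotubes, reserve cells and myoblasts. Pcnt-208 fills 48.9% or more of the Pcnt bar in myotubes and 4.21% or less elsewhere, and Cep170-214 fills 46.9% or more of the Cep170 bar in myoblasts and 3.83% or less elsewhere.

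Of 13 genes of centriole duplication and assembly, 4 were called higher and 7 lower in myotubes than in myoblasts, beside the 32.6% higher and 32.7% lower of all genes, with a median log2 fold change of -0.80. Cep152, which brings the duplication kinase PLK4 to the mother centriole, had 4.20 and 5.87 CPM in myotubes, with 14.2 and 14.6 CPM in reserve cells and 15.0 and 15.2 CPM in myoblasts, a log2 fold change of -1.58 ± 0.19 (adjusted p = 1.14e-04) in myotubes against myoblasts. The myotubes were low and the reserve cells close to the myoblasts. Cep135 of the cartwheel (-1.34 ± 0.16), Cep295, which lets a new centriole take on matrix (-1.25 ± 0.10), and Cep57 with its paralog Cep57l1 (-0.90 ± 0.13 and -1.25 ± 0.23) were also called lower, as were Cep70 and Cep78. The 4 called higher were Cep76, Cep97, Cep63 and Cep120. Cep76, a brake on repeated duplication, had 32.4 and 29.4 CPM in myotubes, with 23.1 and 28.3 CPM in reserve cells and 17.5 and 17.8 CPM in myoblasts, and was higher in myotubes than in myoblasts by 0.81 ± 0.13 (adjusted p = 5.82e-04). Cep97, which caps centrioles with CP110, was higher by 0.51 ± 0.13, and Cep63, the partner of Cep152, by 0.44 ± 0.10 with 31.2 and 29.3 CPM in myotubes, with 27.3 and 27.2 CPM in reserve cells and 23.6 and 21.1 CPM in myoblasts. So the partners Cep152 and Cep63 moved in opposite directions, but Cep63 missed the threshold with library totals (adjusted p = 0.208). Cep97 (log2 fold change 0.23, adjusted p = 0.157) and Cep120 also missed it with library totals, while Cep76 kept its call. Cep44 and Cep85 were not called, at -0.20 (95% interval -0.68 to 0.27) and 0.079 (-0.16 to 0.32).

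The genes of the centriole appendages, the linker between centrioles and the cilium numbered 17. In myotubes against myoblasts 12 of them were called lower and 3 higher, beside 32.7% lower and 32.6% higher of all genes. Cep250, whose product tethers the linker to the centriole, had 19.9 and 21.5 CPM in myotubes, with 65.1 and 69.2 CPM in reserve cells and 103 and 101 CPM in myoblasts. All 3 states stood apart, and the log2 fold change of myotubes against myoblasts was -2.30 ± 0.08 (adjusted p = 4.58e-08). Cep128 of the subdistal appendages had 4.69 and 6.57 CPM in myotubes, with 12.7 and 13.5 CPM in reserve cells and 22.2 and 23.4 CPM in myoblasts (-2.01 ± 0.18, adjusted p = 1.84e-05). Nin, which anchors microtubule ends at the same appendages, had 46.5 and 51.8 CPM in myotubes, with 76.6 and 77.1 CPM in reserve cells and 97.4 and 85.4 CPM in myoblasts (-0.89 ± 0.09, adjusted p = 3.58e-05). Its paralog Ninl, at 16.1 and 12.1 CPM in myotubes, with 18.1 and 18.6 CPM in reserve cells and 14.8 and 19.5 CPM in myoblasts, was not called (-0.29, 95% interval -0.72 to 0.15). The distal appendage genes Cep83, Cep89 and Cep164, which dock the centriole at the membrane, lay between -0.78 and -0.69, all called lower, but Cep89 lost its call with protein-coding transcripts only (-0.31, adjusted p = 0.366). The ciliary genes Cep41, Cep162 and Cep290 were called lower too, at -1.74, -1.51 and -0.83.

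Cep350 and Cep19 were among those called higher in myotubes. Cep350, which binds microtubules at the mother centriole, had 116 and 119 CPM in myotubes, with 80.4 and 90.6 CPM in reserve cells and 78.5 and 86.9 CPM in myoblasts (0.50 ± 0.084, adjusted p = 8.10e-04). Cep19, which Cep350 brings to that centriole, had 13.5 and 15.5 CPM in myotubes, with 11.2 and 9.17 CPM in reserve cells and 10.04 and 10.1 CPM in myoblasts (0.53 ± 0.17, adjusted p = 0.0238). The call of Cep19 was lost without either myoblast library or without myotube replicate 2 (adjusted p = 0.0814, 0.0847 and 0.121). Cep126, a ciliary and pericentriolar protein, was barely present, with 0 and 2 counts in myotubes, 0 and 0 in reserve cells and 19 and 24 in myoblasts. The ratio of myoblasts to myotubes was 17.3 with a 95% counting interval of 4.51 to 147, and Cep126 was at least 14.4-fold lower in reserve cells than in myoblasts against a floor of 3 counts over the group. These limits cover counting error only. Its call in myotubes was lost without myotube replicate 1 or either myoblast library, with adjusted p = 0.0658 to 0.0716.

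Cep170, another subdistal appendage gene, had 92.7 and 104 CPM in myotubes, with 167 and 179 CPM in reserve cells and 224 and 228 CPM in myoblasts, called lower in myotubes by a log2 fold change of -1.20 ± 0.068 (adjusted p = 9.20e-07). That call rested on all transcripts together. Cep170-214, annotated as a target of nonsense-mediated decay, keeps the 186-base intron chr1:176769527-176769712 that the coding transcript Cep170-215 splices out. Cep170-214 shares 13 of its 18 exons exactly with Cep170-215, so the intron is not their only difference. It had 6 and 34 counts in myotubes, with 127 and 66 in reserve cells and 1798 and 2931 in myoblasts. The coding transcripts Cep170-201, Cep170-212 and Cep170-215 together had 1241 and 1704 counts in myotubes, with 3089 and 3310 in reserve cells and 1324 and 1312 in myoblasts. This split, like that of Pcnt, could not be checked here without the reads. By it the myoblasts had the most counts of the intron-keeping form, and the reserve cells the most of the coding forms. Of the coding forms, Cep170-201 summed to 58 counts over the myotube libraries, 962 over the reserve cell libraries and 1 over the myoblast libraries. In CPM the coding forms were at 88.2 and 99.1 in myotubes, 156 and 171 in reserve cells and 77.3 and 60.5 in myoblasts. With only protein-coding transcripts counted, Cep170 was not called in myotubes against myoblasts (log2 fold change -0.095, adjusted p = 0.525) and was called higher in reserve cells (log2 fold change 0.71, adjusted p = 0.00385). The share of Cep170-214 in the gene fell in myotubes (adjusted p = 3.15e-05) and in reserve cells (adjusted p = 6.69e-04) against myoblasts. Cep170-212 had 75 and 218 counts in myotubes, with 153 and 609 in reserve cells and 0 and 0 in myoblasts, at least 121-fold and 252-fold higher in the differentiated states than a floor of 3 counts over the myoblasts. At the level of single transcripts, 9 of 125 tested were called higher and 20 lower in myotubes than in myoblasts (20.2% of all transcripts called), 4 higher and 5 lower in reserve cells than in myoblasts (7.38%), and 3 higher and 6 lower in myotubes than in reserve cells (10.7%). A change of transcript share was called for 5 of 112 tested transcripts of these genes in myotubes against myoblasts, beside 1.71% of all transcripts tested. In reserve cells against myoblasts it was called for 3 of 112, beside 0.807%, and in myotubes against reserve cells for 0 of 112, beside 0.852%. Before adjustment, edgeR's diffSpliceDGE gave a p under 0.05 to 21, 14 and 9 of the 112 in the same order of comparisons. These are not calls, and the unadjusted share over all transcripts is not given here.

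Among the centriolar satellite genes, Pcm1, the scaffold of these granules, was not called in myotubes against myoblasts. Pcm1 had 148 and 156 CPM in myotubes, with 135 and 138 CPM in reserve cells and 148 and 149 CPM in myoblasts, and its log2 fold change of 0.033 (95% interval -0.09 to 0.16, adjusted p = 0.611) had an interval on both sides of 0. With library totals it was -0.25 and called lower (adjusted p = 0.00311), close to the -0.27 by which that scaling moved the median of all genes. Cep131 and Cep72, both satellite components, were called lower, at -0.57 and -1.91. Cep55, which brings the abscission machinery to the midbody at the end of cell division, had the largest fall of the 46 genes in myotubes. It had 3.63 and 2.97 CPM in myotubes, with 18.2 and 21.5 CPM in reserve cells and 55.7 and 58.5 CPM in myoblasts, a log2 fold change of -4.12 ± 0.15 (adjusted p = 5.36e-08) in myotubes against myoblasts. No state overlapped another. Of the 4 genes left over, Cep85l and Cep112 were called lower (-0.84 and -1.05), and Cep95 and Cep295nl were not (-0.36 and 0.86). Cep295nl lies inside Timp2 on the same strand, so its few counts may be shared with that gene. Other spans overlap too, such as Akap9 with Cyp51 on the opposite strand and Cdk5rap2 with Ywhaq-ps3 on the same strand. Whether such overlaps shifted counts was not tested.

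Reserve cells spent as long in low serum as the myotubes, and in them too Akap6 and Akap9 were called higher and Cep55, Tubg1 and Cdk5rap2 lower than in myoblasts. Against the same myoblast libraries as above, 30 of the 46 genes were called, 6 higher and 24 lower, beside 46.1% of all genes called, 24.3% higher and 21.8% lower. The median log2 fold change was -0.30 in the 46 genes and 0.015 in all genes. A fall of at least 2-fold was called for 3 genes, Cep55, Cep72 and Cep126, beside 6.34% of all genes, and a rise of that size for Akap6, beside 10.5%. Akap6 was higher in reserve cells than in myoblasts by 1.24 ± 0.054 (adjusted p = 5.08e-07) and Akap9 by 0.58 ± 0.06 (adjusted p = 9.42e-05). Cep76 (0.54 ± 0.13), Cep63 (0.29 ± 0.10) and Cep120 (0.27 ± 0.10) were also called higher. Each of these 3, Cep120 included, lost its call without some library, Cep76 without reserve cell replicate 2 (adjusted p = 0.0699) and Cep63 without any one of the 6.

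The largest falls in reserve cells after Cep126 were those of Cep72, Cep55, Cep89 and Cep70. Cep72, which recruits matrix proteins through satellites, had 1.49 and 1.05 CPM in myotubes, with 2.37 and 0.777 CPM in reserve cells and 4.96 and 4.56 CPM in myoblasts, and the interval of its log2 fold change, at these low counts, was wide (-2.76 to -0.42). Its call in reserve cells was lost without either myoblast library (adjusted p = 0.113 and 0.0973) or without reserve cell replicate 2 (adjusted p = 0.112). Cep55 was called lower, at -1.53 ± 0.12 (log2, adjusted p = 1.78e-05). Cep89 had 13.9 and 14.4 CPM in myotubes, with 13.6 and 12.1 CPM in reserve cells and 22.8 and 24.7 CPM in myoblasts, a log2 fold change of -0.89 ± 0.13 (adjusted p = 7.49e-04) for reserve cells that was -0.50 and not called with protein-coding transcripts only (adjusted p = 0.190). Cep70, which takes part in microtubule organization at the centrosome, had 6.04 and 5.41 CPM in myotubes, with 6.86 and 6.42 CPM in reserve cells and 12.5 and 11.3 CPM in myoblasts (-0.85 ± 0.19, adjusted p = 0.00634). Tubg1 was at -0.67 ± 0.087 (adjusted p = 3.49e-04) and Cdk5rap2 at -0.51 ± 0.092 (adjusted p = 0.00222), while Cep192 (-0.24, 95% interval -0.54 to 0.072), Cep152 (-0.073, -0.48 to 0.34) and Tubgcp3 (-0.11, -0.32 to 0.10) were not called. Pcnt was called lower in reserve cells (-0.20 ± 0.061, adjusted p = 0.0275), but not without myoblast replicate 2 or either reserve cell library (adjusted p = 0.0865 to 0.152). With protein-coding transcripts only, 18 of the 30 calls were kept in the same direction, and those of Cep41, Cep250, Nin and Tubgcp2 were among the ones lost. Only 15 of the 30 calls were kept whichever library was left out, and without reserve cell replicate 2 the number called was 19. Reserve cells also held 1267 to 1268 CPM of cycling markers and 7486 to 7614 CPM of myotube markers, whose part in these levels was not tested.

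Set directly against each other, the differentiated states differed in 24 of the 46 genes, 7 higher and 17 lower in myotubes, beside 55.6% of all genes called, 27.2% higher and 28.4% lower. The share called among the 46, 52.2%, was thus near that of all genes. A fall of at least 2-fold was called for 7 genes, beside 14.0% of all genes, and a rise of that size for Akap6, beside 9.43%. Akap6 was higher in myotubes than in reserve cells by 1.20 ± 0.053 (adjusted p = 4.18e-07), Pcnt by 0.60 ± 0.061 (adjusted p = 5.70e-05), Cep19 by 0.51 ± 0.17 (adjusted p = 0.0336) and Cep350 by 0.46 ± 0.084 (adjusted p = 0.00189). Akap9 and Pcm1 were also called higher, by 0.17 and 0.15, but both turned with library totals (-0.037 and -0.053), a scaling that moved the median of all genes to -0.21. Cep55 (-2.59 ± 0.15, adjusted p = 1.84e-06), Cep192 (-1.74 ± 0.15, adjusted p = 1.91e-05), Cep250 (-1.69 ± 0.079, adjusted p = 5.99e-07) and Cep152 (-1.50 ± 0.19, adjusted p = 2.22e-04) had the largest falls. Cep41, which takes part in tubulin modification in cilia, had 6.54 and 5.41 CPM in myotubes, with 14.4 and 14.1 CPM in reserve cells and 20.5 and 19.4 CPM in myoblasts (-1.26 ± 0.16, adjusted p = 2.04e-04). Tubg1 and Cdk5rap2 were also called lower in myotubes, at -0.36 ± 0.09 and -0.64 ± 0.095 on the log2 scale. Calls of Akap9, Pcm1, Cep19 and Cep164 were lost when some library was left out, and the number called higher was 4 without myotube replicate 2, reserve cell replicate 2 or myoblast replicate 2. With library totals 4 genes were called higher and 23 lower. With protein-coding transcripts only, Pcnt was lower in myotubes than in reserve cells (-0.64, adjusted p = 0.0231).

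By mean CPM, 27 of the 46 genes had their lowest level in myotubes, a middle one in reserve cells and their highest in myoblasts. This was 58.7% of them, beside 28.4% of all genes tested. The reverse order, highest in myotubes, held for 11 (23.9%, beside 29.1% of all genes), among them Akap6, Akap9, Cep76 and Cep63. Reserve cells were lowest for 6 genes, Pcnt, Pcm1, Cep68, Cep89, Cep126 and Cep131, and highest for Cep44 and Ninl. Such an order of means takes no account of the error, and neighbours such as Cep152 in reserve cells and myoblasts were not called different.

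To set genes beside each other, counts were divided by transcript length and scaled to the same total in each library (TPM). In myotubes Akap6 had the highest level of the 46 genes, 46.8 and 51.5 TPM, against 26.9 and 28.5 TPM in reserve cells and 11.8 and 12.1 TPM in myoblasts. Pcm1 had 41.9 and 44.6 TPM in myotubes, with 50.5 and 51.9 TPM in reserve cells and 56.3 and 56.7 TPM in myoblasts. Its TPM was thus lowest in myotubes, unlike its CPM. Akap9 changed its order too, with 21.4 and 21.6 TPM in myotubes and 24.2 and 25.3 TPM in reserve cells. The TPM carry no TMM factors, so such contrasts with CPM do not reflect length alone. In myoblasts Cep170 and Tubg1 led. Cep170 had 26.4 and 29.3 TPM in myotubes, with 60.7 and 65.4 TPM in reserve cells and 105 and 104 TPM in myoblasts, and Tubg1 had 31.2 and 32.4, 51.8 and 55.3 and 93.1 and 80.4 TPM in the same order. These levels per length were not tested.

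Other genes of the same structures gave a wider view of the change between myotubes and myoblasts. The counts below stand beside 32.7% of all genes called lower and 32.6% called higher in this comparison. Of 12 genes for centrosome maturation and spindle poles, 12 were called lower, with a median log2 fold change of -3.78. Plk1, the kinase that starts maturation, had 8.68 and 6.63 CPM in myotubes, with 36.4 and 37.7 CPM in reserve cells and 128 and 121 CPM in myoblasts (-4.04 ± 0.12, adjusted p = 1.87e-08). Of 21 further genes of centriole duplication, 17 were called lower and 3 higher, with a median of -1.33. Stil (-3.51) and Plk4 (-3.02), which start the new centriole, fell most, and Tubd1, delta-tubulin, and Cetn2, a centrin, were higher by 1.70 and 1.35. Of 15 genes of the gamma-tubulin ring complex and augmin, 7 were called lower and 3 higher (median -0.23), with Haus5 (-1.46) and Haus6 (-1.23), subunits of augmin, among the lower ones and Haus8 (0.65), another subunit, and Mzt1 (0.60), a small part of the ring complex, among the higher. Of 18 genes of appendages and the ciliary transition zone, 14 were called lower and 3 higher (median -0.97), with Ccdc120 at -2.05 and Kif3a, a motor of ciliary transport, at 0.48. The median log2 fold change of the cycling cell markers was -3.60, and the part of cycling cells in these lists was not tested.

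Of 21 tested genes of microtubule organization at the nuclear envelope and Golgi, 11 were called higher and 6 lower in myotubes than in myoblasts, beside 32.6% and 32.7% of all genes, with a median of 0.20. Pde4dip, myomegalin, the muscle-rich paralog of Cdk5rap2, had 1164 and 1202 CPM in myotubes, with 383 and 396 CPM in reserve cells and 107 and 109 CPM in myoblasts (3.45 ± 0.041, adjusted p = 1.38e-10). It moved opposite to Cdk5rap2. Syne1, which encodes the nesprin-1 that holds AKAP6, had 183 and 189 CPM in myotubes, with 92.8 and 96.1 CPM in reserve cells and 65.6 and 66.1 CPM in myoblasts (1.50 ± 0.059, adjusted p = 9.85e-08). The other nesprin genes Syne2 and Syne3 were called lower, at -2.93 and -2.92. Bicd2, a dynein adaptor counted both here and among the satellite genes, was higher by 2.33. Of 14 satellite genes 4 were called higher and 4 lower, near the shares of all genes, with a median of 0.017. In reserve cells against myoblasts, 9 of the 21 nuclear envelope and Golgi genes were called higher and 4 lower (all genes 24.3% and 21.8%), and 11 of the 12 spindle pole genes were called lower. In myotubes against reserve cells, 10 of the 21 were called higher and 6 lower (all genes 27.2% and 28.4%), and all 12 spindle pole genes lower.

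**Figure D4:**
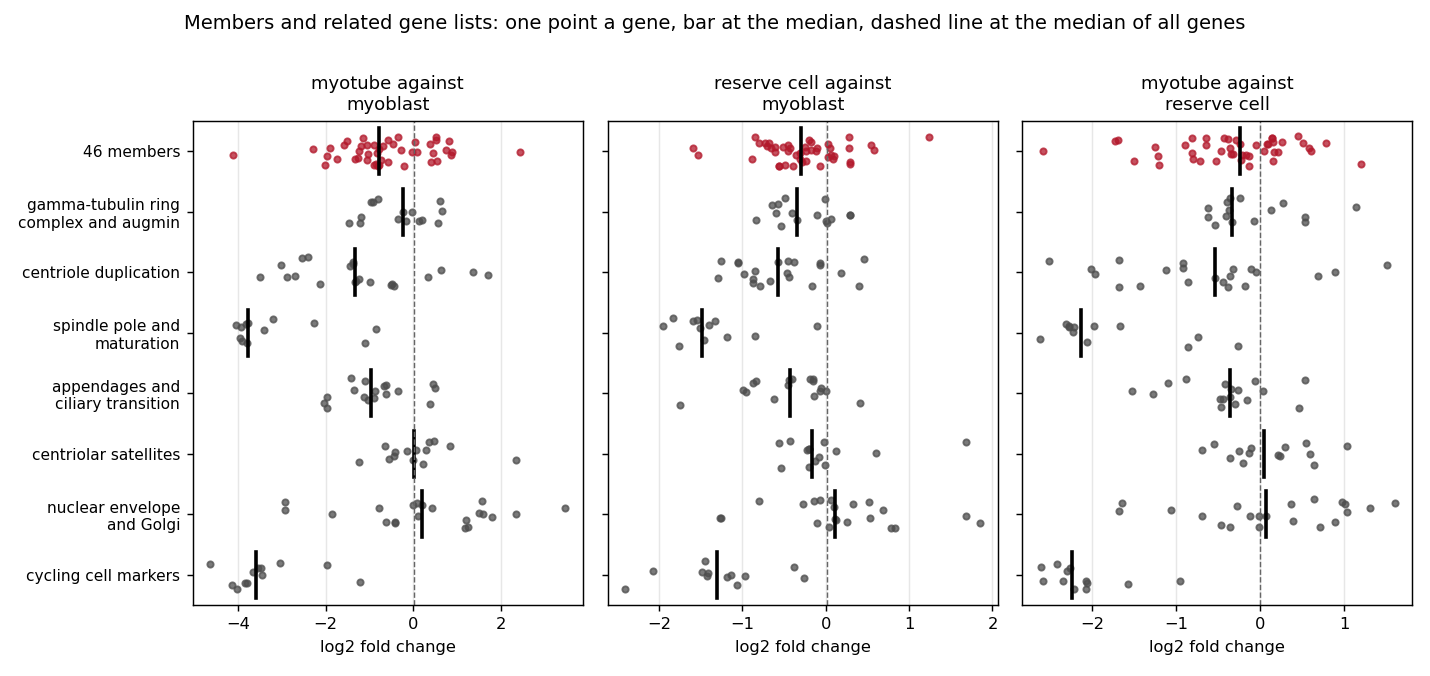
Fitted log2 fold changes (x axis) of the 46 centrosome and MTOC genes (red) and of related gene lists (grey), 1 point a gene, with a black bar at each median and a dashed line at the median of all genes, in the 3 comparisons. The points of Cep126 and Ccdc68, with counts near 0, are not drawn, and the spindle pole genes sit farthest left with a median of -3.78 in myotubes against myoblasts, while the nuclear envelope and Golgi genes spread to both sides of 0.

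RefSeq promoter windows (GRCm38.p6, from 250 bases before to 50 bases after the start) were given for 37 of the 46 genes and were searched on both strands. The letters TTTGAA, the core of the cell cycle genes homology region (CHR) known from mitotic promoters, were found in 11 of the 37 genes (29.7%), beside 20.2% of all 27025 genes with a window. All 11 were called lower in myotubes than in myoblasts, and of the 26 without these letters 15 were called lower and 6 higher. Among all tested genes, 38.5% of those with the letters and 34.5% of those without were called lower. The letters CCAAT were found in 51.4% of the 37 genes and 41.1% of all genes, and CAGCTG, an E-box, in 13.5% and 18.3%. The E2F letters TTTCCCGC, TTTCGCGC, TTTGCCGC or TTTGGCGC were found in 8.11% and 2.60%. Those 8.11% were only 3 genes, Cep128, Cep63 and Tubgcp3, with 2 called lower and 1 higher in myotubes than in myoblasts. A match describes the letters and is not evidence of a factor bound there. The windows of Cep55 (chr19:38054734-38055033, plus strand) and Cdk5rap2 (chr4:70410386-70410685, minus strand) are shown as the gene with the largest fall and a matrix gene that fell, each with its 1 CHR match in capitals. The window of Akap6 (chr12:52699133-52699432, plus strand), the gene with the largest rise, holds no CHR match and is shown with its 1 CCAAT match in capitals. No other searched motif was found in these 3 windows.
Cep55: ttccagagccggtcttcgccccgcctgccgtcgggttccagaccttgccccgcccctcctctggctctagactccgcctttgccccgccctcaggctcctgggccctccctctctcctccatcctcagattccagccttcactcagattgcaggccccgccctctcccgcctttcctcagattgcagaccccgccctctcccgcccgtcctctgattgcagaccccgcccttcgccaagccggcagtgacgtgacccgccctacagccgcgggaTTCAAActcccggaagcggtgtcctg
Cdk5rap2: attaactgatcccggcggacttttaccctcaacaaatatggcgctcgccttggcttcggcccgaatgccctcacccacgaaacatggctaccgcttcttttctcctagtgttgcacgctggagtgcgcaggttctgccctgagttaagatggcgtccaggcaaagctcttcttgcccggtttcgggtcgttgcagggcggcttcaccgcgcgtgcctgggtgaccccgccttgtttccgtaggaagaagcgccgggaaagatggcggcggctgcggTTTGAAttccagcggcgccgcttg
Akap6: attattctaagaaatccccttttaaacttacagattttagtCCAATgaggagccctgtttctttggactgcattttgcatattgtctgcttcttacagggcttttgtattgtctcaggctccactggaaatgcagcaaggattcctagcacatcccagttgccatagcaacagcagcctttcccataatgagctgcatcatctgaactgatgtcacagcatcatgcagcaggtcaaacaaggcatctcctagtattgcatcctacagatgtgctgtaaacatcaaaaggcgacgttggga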

How the data were processed

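Transcript counts of 6 C2C12 libraries were used. The submitters' processing notes name mm10, HISAT2, SAMtools and StringTie, and the values the authors deposited are whole-number estimated counts, 1 for each transcript. No source used here gives versions, the annotation release or whether counting used strand. The deposited table of the whole series was not used. Of 142604 transcripts, 141374 could be assigned to genes by identifier with GENCODE M21 (GRCm38); the other 1230, with 0.375% to 0.872% of a library, entered the tests under their own identifiers. Gene sums were fitted by edgeR 4.0.16 under R 4.3.3, with filterByExpr at a minimum count of 10, TMM factors and quasi-likelihood F-tests in 1 model of the 6 libraries. P-values were adjusted by Benjamini-Hochberg across the 15467 genes that passed, at 0.05. Shares of transcripts within genes were tested by diffSpliceDGE. The biological coefficient of variation was 12.9%. The procedure was also tried on simulated data, with the common dispersion of the real fit and fewer changed genes than were called here.

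The genes and lists were chosen with earlier results of these data known. Values in every library are given for the 10 genes chosen by name and, per comparison, for those called without overlap between groups that had the 5 largest fold changes in each direction. List examples are the called genes with the 2 largest fold changes each way. Cep170, the transcripts of Pcnt and Cep170, and Syne1 were added after their values were seen. Of the genes this rule picks, 1 is not reported here. The alternatives were library totals or factors by relative log expression in place of TMM, DESeq2 1.42.0, an unfiltered fit, a 10 CPM filter in 2 libraries, separate fits of the groups compared, a block for the replicate number, a test of transcripts instead of genes, the omission of each library and, added after the data were seen, protein-coding transcripts only. No libraries were identical, and replicate counts differed beyond sampling noise (chi-square over degrees of freedom 6.23 to 8.02).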

Additional observations from a re-analysis of the deposited data

Results flagged for a closer look

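Pcnt stood out because its change differed between the differentiated states: against the same myoblasts it was called higher in myotubes (0.40 ± 0.061, log2 ± SE) and lower in reserve cells (-0.20 ± 0.061, log2 ± SE), and the test of that difference, myotubes against reserve cells, gave 0.60 (log2, adjusted p = 5.70e-05). It was 134 and 131 CPM in myotubes, with 87.5 and 87.1 CPM in reserve cells and 97.7 and 103 CPM in myoblasts. With protein-coding transcripts only, the same difference was -0.64 (adjusted p = 0.0231). Groups of 2 libraries are too small for a search for single libraries far from the others.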

How the results depend on the processing

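With 2 libraries a state, counts near the threshold moved with the setting. With transcripts in place of genes, genes changed were 20 (6 higher, 14 lower) in myotubes against myoblasts, 6 (3 higher, 3 lower) in reserve cells against myoblasts and 9 (3 higher, 6 lower) in myotubes against reserve cells. With library totals, 5 genes were higher in myotubes against myoblasts and 4 in myotubes against reserve cells, and with no filter 4 were higher in myotubes against reserve cells. With protein-coding transcripts only, chosen after seeing the data, 19 genes changed in reserve cells against myoblasts, 14 of them lower. Leaving out 1 library at a time, 34 to 39 genes changed (7 to 10 higher, 27 to 29 lower) in myotubes against myoblasts, 19 to 28 (3 to 4 higher, 16 to 24 lower) in reserve cells against myoblasts and 21 to 23 (4 to 6 higher, 17 to 19 lower) in myotubes against reserve cells. Of 998 log2 fold changes of 24 named genes under the alternatives, 903 kept their direction and side of the threshold, 72 lost the call, 5 gained one and 18 changed sign. The sign changes with library totals were Pcm1 (-0.25) in myotubes against myoblasts, Cep19 (-0.048) and Cep350 (-0.025) in reserve cells against myoblasts, and Akap9 (-0.037), Cep63 (-0.059), Cep89 (-0.067) and Pcm1 (-0.053) in myotubes against reserve cells. With protein-coding transcripts only they were Pcnt (-0.87) and Tubgcp3 (0.11) in myotubes against myoblasts, Tubgcp3 (0.68) in reserve cells against myoblasts, and Pcnt (-0.64) and Cep72 (0.20) in myotubes against reserve cells. With 1 library left out, Pcm1 ranged over -0.015 to 0.066 in myotubes against myoblasts, Cep19 over -0.13 to 0.16, Cep350 over -0.040 to 0.13 and Ninl over -0.088 to 0.31 in reserve cells against myoblasts, and Cep72 over -0.92 to 0.69 in myotubes against reserve cells. The cause of these shifts was not tested. With the replicate number as a block, 39, 26 and 23 genes changed in the 3 comparisons. Same-numbered libraries did not deviate together (correlations 0.0022, 0.040 and -0.032), so the numbers were not taken as a pairing. Low counts limit Cep126, Cep72, Cep112 and Cep295nl, and where a library was left out the lone library of its state was assumed to vary like the others.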
